A study of Homo sapiens with 36 samples.

Results

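The aryl hydrocarbon receptor (AHR) pathway was followed through 6 genes, the receptor with its partner, feedback inhibitors and targets, looked up by symbol: AHR, ARNT, AHRR, CYP1A1, CYP1B1 and TIPARP. All 6 were found once each among the 57500 genes of the deposited count table, and all 6 passed the filter on low counts in both cell lines. PolyA mRNA had been sequenced from OE33 and FLO1, 2 established cell lines from human esophageal adenocarcinoma, each stably transduced with an shRNA against APE1 (shAPE1#1 or shAPE1#3) or with a non-targeting shRNA (shControl). APE1, the product of APEX1, is a base excision repair endonuclease that also acts on transcription factors. As a model of reflux, cells of each line and construct were bathed for 20 min in bile salts (200 µM) that had been brought to pH 4, here called ABS, and were collected after 6 h back in complete medium; the others were left unexposed. The 12 groups were OE33 shAPE1#1, OE33 shAPE1#3, OE33 shControl, FLO1 shAPE1#1, FLO1 shAPE1#3 and FLO1 shControl, each after ABS and unexposed, with 3 libraries per group and 36 in all. The unexposed cells are not described as having had an acid or medium change of their own, so the comparison with ABS covers the whole exposure. Every group carries a stable shRNA, the unexposed shControl cells included, and OE33 was kept in RPMI1640 and FLO1 in DMEM, so that cell line and medium cannot be told apart.

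AHR is a basic helix-loop-helix PAS transcription factor that waits in the cytosol, bound to HSP90 chaperones, until it binds a ligand such as a polycyclic hydrocarbon from smoke, a dioxin or a tryptophan metabolite. It then enters the nucleus, pairs with ARNT and binds dioxin response elements, whose core is GCGTG. Its best known targets are the cytochrome P450 monooxygenases CYP1A1 and CYP1B1, which oxidize the ligands, and a pair of feedback inhibitors: AHRR, a repressor that competes for ARNT and for the DNA, and TIPARP, a mono-ADP-ribosyltransferase that modifies AHR and promotes its breakdown. The esophageal lining meets such ligands in smoke and food.

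The DNA upstream of 3 of the targets is shown because CYP1A1 and AHRR were the members that rose after ABS in OE33, while TIPARP carries the same core and did not pass the test there. The sequences are from RefSeq (GRCh38.p14) and end at the base before the annotated start; capitals mark each GCGTG, or its reverse complement CACGC.

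CYP1A1, chr15:74725529-74725778, minus strand: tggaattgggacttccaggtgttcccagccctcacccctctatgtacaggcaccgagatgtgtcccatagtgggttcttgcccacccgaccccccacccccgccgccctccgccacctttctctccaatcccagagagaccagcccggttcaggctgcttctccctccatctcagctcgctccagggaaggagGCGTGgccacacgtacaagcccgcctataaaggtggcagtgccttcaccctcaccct

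AHRR, first start, chr5:321464-321713, plus strand: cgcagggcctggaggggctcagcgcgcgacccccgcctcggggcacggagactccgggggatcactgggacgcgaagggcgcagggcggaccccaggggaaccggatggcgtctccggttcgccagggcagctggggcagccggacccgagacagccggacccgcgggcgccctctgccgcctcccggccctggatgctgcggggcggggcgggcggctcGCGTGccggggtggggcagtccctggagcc

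AHRR, second start, chr5:322360-322609, plus strand: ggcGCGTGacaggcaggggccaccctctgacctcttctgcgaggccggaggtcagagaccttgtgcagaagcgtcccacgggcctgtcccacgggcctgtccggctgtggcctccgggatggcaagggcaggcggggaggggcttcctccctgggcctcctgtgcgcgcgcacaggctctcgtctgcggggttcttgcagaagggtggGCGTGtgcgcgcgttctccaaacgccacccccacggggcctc

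TIPARP, first start, chr3:156674340-156674589, plus strand: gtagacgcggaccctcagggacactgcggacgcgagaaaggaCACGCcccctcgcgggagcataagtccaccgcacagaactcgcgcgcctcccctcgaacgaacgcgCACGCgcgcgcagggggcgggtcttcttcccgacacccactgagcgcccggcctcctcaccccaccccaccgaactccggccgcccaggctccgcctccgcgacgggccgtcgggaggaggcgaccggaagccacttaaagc

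The core was searched on both strands in windows of 300 bases, from 250 before to 50 after each start, and 5 of the 6 members had a window. Positions are those of the core's first base relative to the start. The CYP1A1 window held 1 core, at -57. The first AHRR window held 1, at -30, and the second held 2, at -247 and -42. Both cores of the first TIPARP window lay on the reverse strand, at -208 and -142, and the other two TIPARP windows and the ARNT window held none. The AHR window held 1 core, at 37. Among all 35116 windows in RefSeq, 36.5% held at least 1 core and 12.67% at least 2, so the match is a description of these letters and not a measured binding site.

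Library totals were 20.7 to 38 M counts in OE33 and 21.8 to 40.7 M in FLO1. APEX1 averaged 23.95 and 21.82 CPM (counts per M counts of the library) in unexposed OE33 shAPE1#1 and shAPE1#3 cells, against 194.8 CPM in shControl cells, and 25.17 and 37.13 CPM in the same FLO1 groups, against 196.6 CPM. The gene was thus far lower in every shAPE1 group, as its label says. The labels call both lines epithelial. In OE33 EPCAM was at 462 to 650 CPM and VIM at 0.309 to 7.18, whereas in FLO1 EPCAM was at 0.347 to 1.7 CPM, KRT19 at 3.77 to 19.1 and VIM at 2830 to 3520, with KRT8 (1480 to 2870) and KRT18 (870 to 1720) present. The mesenchymal markers did not all run with VIM, since FN1 was at 217 to 720 CPM in OE33 and 1.45 to 7.02 CPM in FLO1, and CDH2 and TWIST1 had a median of 0 in both lines. VIM in OE33 came to at most 0.236% of its FLO1 level, a share that would bring 0.182 CPM of AHRR, below the lowest OE33 value of 2.71 CPM. EPCAM in FLO1 came to at most 0.304% of its OE33 level, which would bring 0.0665 CPM of CYP1A1, below the lowest FLO1 value of 2.15 CPM. The 6 immune genes summed to at most 10.9 CPM and the 5 endothelial genes to at most 1.73 CPM in any group. FLO1 shControl ABS replicate 2 stood apart from replicates 1 and 3 of its group, with a chi-square per degree of freedom of 69.7 and 39.1 over genes, against 2.41 to 23.8 for every other pair of replicates.

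The first question was how the pathway is set in each line before any exposure. In unexposed shControl cells OE33 held 7.83-fold more AHR, 5.92-fold more CYP1A1 and 2.99-fold more TIPARP mRNA than FLO1, while AHRR was 19-fold, CYP1B1 8.96-fold and ARNT 1.63-fold lower in OE33. All 6 members passed the test (edgeR's quasi-likelihood test, Benjamini-Hochberg adjusted p under 0.05, over all genes tested), 3 of them higher and 3 lower in OE33. The background is broad, since 77.6% of the 18199 genes tested differed between the lines, so a count of 6 of 6 says little about these genes as a group; their sizes are what the comparison shows. In bulk libraries fewer cells with an mRNA and less of it per cell cannot be told apart. Changes are given below as log2 fold changes ± SE from that test, and levels as CPM.

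AHR (ENSG00000106546; chromosome 7, 16916359 to 17346152, plus strand, in GRCh38 and GENCODE 29), the receptor, had 20.8, 23.9 and 28.4 CPM in OE33 shControl libraries and 3.06, 3.88 and 3.24 CPM in FLO1 shControl libraries, unexposed. The ranges lie far apart, and the difference was 2.97 ± 0.13 (edgeR adjusted p = 6.51e-22). In the whole series AHR ran from 20.8 to 36.9 CPM in the 18 OE33 libraries and from 2.95 to 5.97 CPM in the 18 FLO1 libraries, where it had 75 to 178 counts. Of the AHR exon length 29.4% is shared with AC019117.2, a gene on the same strand that was at 0 counts in every library, so counting may have kept reads of that stretch from AHR. ARNT (ENSG00000143437; chromosome 1, 150809705 to 150876768, minus strand), the partner that AHR needs to bind DNA, had 21.7, 27 and 29.3 CPM in OE33 and 45.1, 45.9 and 48 CPM in FLO1, a difference of -0.70 ± 0.09 (edgeR adjusted p = 9.08e-09). Receptor and partner stood in opposite order in the lines, with OE33 higher in AHR and lower in ARNT.

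AHRR (ENSG00000063438; chromosome 5, 304176 to 438291, plus strand), the repressor, had 3.6, 4.44 and 3.36 CPM in OE33 and 82.3, 77.2 and 78.5 CPM in FLO1. This was the largest difference among the members, at -4.25 ± 0.14 (edgeR adjusted p = 6.75e-26). TIPARP (ENSG00000163659; chromosome 3, 156673235 to 156706770, plus strand), the other feedback inhibitor, went the other way, with 69, 69.5 and 89.6 CPM in OE33 and 25.1, 31.3 and 27.1 CPM in FLO1 (1.58 ± 0.11, edgeR adjusted p = 3.3e-16). AHRR shares 3.2% of its exon length with PDCD6, and TIPARP 0.7% with an antisense gene. PDCD6 lies on the same strand as AHRR and averaged 246.3 CPM in these OE33 cells and 244.5 CPM in these FLO1 cells. AHRR averaged 3.803 CPM in the OE33 cells, and how shared reads were counted is not given. The part of PDCD6 reads in the AHRR counts was not tested.

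The P450 genes also split between the lines. CYP1A1 (ENSG00000140465; chromosome 15, 74719542 to 74725610, minus strand) had 16.9, 13.8 and 14.6 CPM in OE33 and 2.84, 2.37 and 3.2 CPM in FLO1 (2.57 ± 0.14, edgeR adjusted p = 1.41e-18). CYP1B1 (ENSG00000138061; chromosome 2, 38066973 to 38109902, minus strand) had 12.1, 13.1 and 12.6 CPM in OE33 and 120, 136 and 116 CPM in FLO1 (-3.16 ± 0.11, edgeR adjusted p = 1.58e-25). The OE33 line therefore carried more of CYP1A1 and FLO1 more of CYP1B1, with no overlap of libraries for either gene. CYP1B1 shares 11.3% of its exon length with the antisense gene CYP1B1-AS1, and the strand setting of the counting is not given in the sources used here; CYP1B1-AS1 itself was counted at a mean of 1.159 CPM in OE33 and 2.94 CPM in FLO1.

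Levels of different genes were compared per length, as CPM per kb of exon (the union of a gene's GENCODE 29 exons), in unexposed shControl cells. In OE33 the order was TIPARP at 15.1, CYP1A1 at 4.4, ARNT at 3.99, AHR at 3.01, CYP1B1 at 2.1 and AHRR at 0.495 CPM per kb. CYP1A1 and ARNT were close for their SDs of 0.459 and 0.601, so their order is not settled. The AHR length includes the 29.4% shared with AC019117.2. If reads of that stretch were lost, AHR per kb is too low, so its place after CYP1A1 and ARNT in OE33 is not settled. In FLO1 the order was CYP1B1 at 20.6, AHRR at 10.3, ARNT at 7.11, TIPARP at 5.51, CYP1A1 at 0.816 and AHR at 0.42 CPM per kb. The repressor was thus the least abundant member per kb in OE33 and the receptor the least abundant in FLO1.

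**Figure D1:**
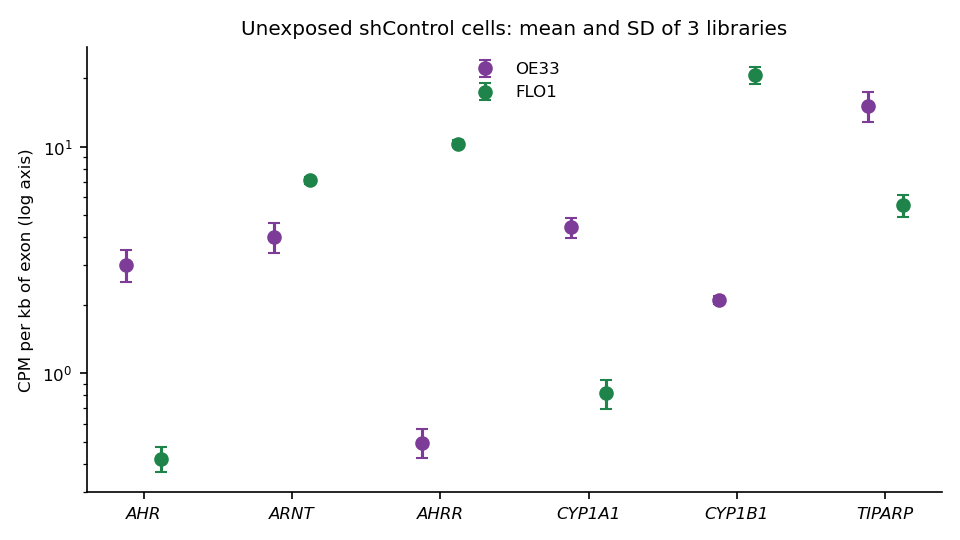
Level of each gene per kb of exon (CPM per kb, log axis) in unexposed shControl cells of OE33 and FLO1; points are means and bars SDs of 3 libraries. AHRR is at 0.495 in OE33 and 10.3 in FLO1, and AHR at 3.01 in OE33 and 0.42 in FLO1.

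Across all 12 groups the lines did not overlap for any member: every library of the higher line stood above every library of the lower one. Within a line the order was closer. For CYP1A1 in OE33 the means ran from 34.67 CPM in shControl after ABS, 30.87 in shAPE1#3 after ABS and 28.5 in shAPE1#1 after ABS to 15.1 in unexposed shControl, 13.24 in unexposed shAPE1#1 and 11 in unexposed shAPE1#3 cells. The shAPE1#3 and shAPE1#1 groups after ABS overlapped each other, as did the unexposed shControl and shAPE1#1 groups, and the other neighbours in that order did not. For AHRR in OE33 the 3 ABS groups averaged 6.08 to 6.893 CPM and the 3 unexposed groups 3.149 to 3.803 CPM, and within each of those sets neighbours overlapped. For AHRR in FLO1 the lowest group was shAPE1#1 after ABS, at 50.13 CPM, next unexposed shAPE1#1 at 69.86 CPM, and the others were at 76.9 to 88.98 CPM.

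**Figure D2:**
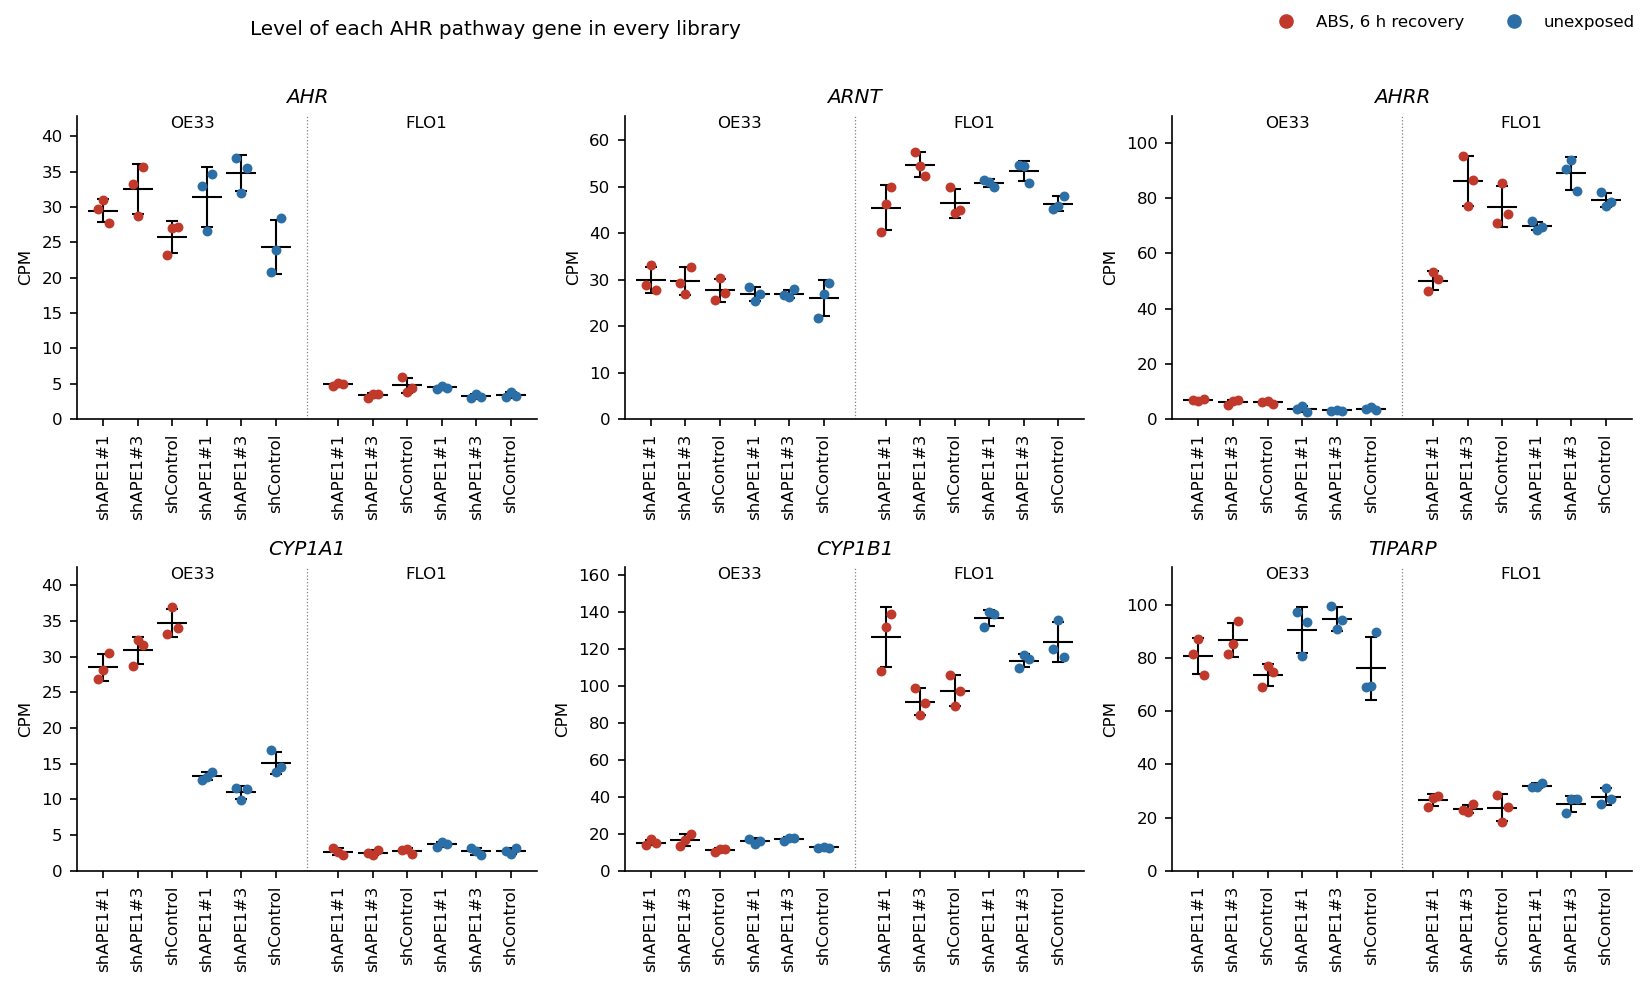
Level of each gene in CPM (linear axes that start at 0) in every library, by line and construct; red points are ABS libraries, blue points unexposed libraries, and black marks the mean ± SD of 3. In OE33 the CYP1A1 and AHRR points after ABS stand above the unexposed ones, and in FLO1 they do not.

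The next question was how ABS moves the pathway. In OE33 CYP1A1 rose with each construct, to 28.5, 30.87 and 34.67 CPM in shAPE1#1, shAPE1#3 and shControl cells after ABS, against 13.24, 11 and 15.1 CPM in the unexposed cells, and AHRR rose with each as well. AHR, ARNT, CYP1B1 and TIPARP did not pass the test in any of the 3. Ordered by p, CYP1A1 was number 4 of all 15540 genes tested in shControl cells, number 3 in shAPE1#1 cells and number 1 in shAPE1#3 cells. In FLO1 CYP1A1 did not pass with any construct, and the members that passed fell.

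In OE33 shControl cells CYP1A1 had 33.1, 36.9 and 34 CPM after ABS and 16.9, 13.8 and 14.6 CPM unexposed. Every ABS library stood above every unexposed one, and the rise was 2.33-fold (1.22 ± 0.09, edgeR adjusted p = 4.29e-09). With shAPE1#1 CYP1A1 had 26.9, 28.1 and 30.5 CPM after ABS and 12.7, 13.2 and 13.9 CPM unexposed, a rise of 2.13-fold (1.09 ± 0.09, edgeR adjusted p = 9.98e-08). With shAPE1#3 it had 28.7, 32.3 and 31.6 CPM after ABS and 11.6, 9.91 and 11.5 CPM unexposed, a rise of 2.82-fold (1.49 ± 0.10, edgeR adjusted p = 2.91e-10). The rise thus was seen in all 3 separate sets of 6 libraries, and no library left out ended any of the 3 calls.

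AHRR in OE33 shControl cells had 6.04, 6.64 and 5.55 CPM after ABS and 3.6, 4.44 and 3.36 CPM unexposed (0.69 ± 0.17, edgeR adjusted p = 0.0087). Without shControl ABS replicate 2 or shControl unexposed replicate 3 the edgeR adjusted p was 0.0504 and 0.0543. With shAPE1#1 AHRR had 6.81, 6.63 and 7.24 CPM after ABS and 3.54, 4.62 and 2.71 CPM unexposed (0.91 ± 0.17, edgeR adjusted p = 0.002; 0.0648 when those groups were fitted alone). With shAPE1#3 it had 5.23, 6.42 and 6.83 CPM after ABS and 2.91, 3.46 and 3.08 CPM unexposed (0.97 ± 0.17, edgeR adjusted p = 0.0022). The groups did not overlap with any construct, although the counts behind AHRR in OE33 are few, at 60 to 244 per library.

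Thus 2 of 6 members passed in each OE33 construct, both higher. Over all genes tested 8.4% were called in shControl, 4.73% in shAPE1#1 and 2.26% in shAPE1#3 cells. The receptor moved by 0.10 ± 0.11 in shControl, -0.11 ± 0.11 in shAPE1#1 and -0.09 ± 0.10 in shAPE1#3 cells after ABS, with edgeR adjusted p of 0.624, 0.593 and 0.728. CYP1B1 moved by -0.16, -0.10 and -0.03 in shControl, shAPE1#1 and shAPE1#3 cells, and TIPARP by -0.02, -0.19 and -0.12, and none of these passed. All 3 shControl libraries of CYP1B1 after ABS, at 9.98 to 11.9 CPM, did lie below the unexposed ones, at 12.1 to 13.1 CPM. The 95% interval of the shControl response was 1.03 to 1.41 for CYP1A1, -0.40 to 0.08 for CYP1B1 and -0.20 to 0.15 for TIPARP.

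Among markers of other cells, the summed level of 6 fibroblast genes in OE33 shControl cells was 4.1 to 20.6 CPM after ABS and 3.67 to 4.02 CPM unexposed, and VIM was 0.388 to 3.01 CPM after ABS and 0.309 to 0.743 CPM unexposed. In shAPE1#3 cells, where the CYP1A1 estimate was highest, the fibroblast sum was 3.54 to 5.15 CPM after ABS and 2.49 to 3.12 CPM unexposed. The 7 epithelial genes summed to 22900 to 23400 CPM after ABS and 22300 to 24200 CPM unexposed in OE33 shControl cells, although EPCAM among them was at 462 to 508 CPM after ABS and 572 to 595 CPM unexposed. The 7 mesenchymal genes summed to 318 to 372 CPM after ABS and 218 to 247 CPM unexposed in those cells, without overlap, and to 571 to 727 CPM after ABS and 543 to 628 CPM unexposed in shAPE1#3 cells, with overlap. In shAPE1#3 cells the epithelial genes summed to 19600 to 20600 CPM after ABS and 18600 to 19400 CPM unexposed, without overlap. The immune genes there summed to 5.99 to 7.23 CPM after ABS and 4.97 to 5.67 CPM unexposed. In shAPE1#1 cells the epithelial sums overlapped, at 18800 to 20900 CPM after ABS and 18300 to 20200 CPM unexposed. The part of these markers in the rise was not tested.

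In FLO1 the members that passed after ABS were lower. CYP1B1 had 106, 89.4 and 97.6 CPM after ABS and 120, 136 and 116 CPM unexposed in shControl cells (-0.40 ± 0.09, edgeR adjusted p = 0.0145). It had 99.1, 84.6 and 91.1 CPM after ABS and 110, 117 and 115 CPM unexposed in shAPE1#3 cells (-0.36 ± 0.09, edgeR adjusted p = 0.044). The ABS libraries lay below the unexposed ones in both, but neither call was firm. In shControl cells it was lost without unexposed replicate 2 (edgeR adjusted p = 0.099), without ABS replicate 3 (0.0536) and with those groups fitted alone (0.291), and it held without ABS replicate 2, the library that stood apart (-0.36, edgeR adjusted p = 0.0125). In shAPE1#3 cells it was lost in 13 of 18 fits that left out 1 library, with edgeR adjusted p of 0.0503 to 0.221; it held without shControl unexposed replicate 2, shControl ABS replicate 1 or 2, or shAPE1#1 ABS replicate 1 or 3. It was also lost with library totals alone (edgeR adjusted p = 0.107), without the filter on low counts (0.0564) and with the replicate block (0.0874).

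AHRR in FLO1 shAPE1#1 cells had 46.4, 53.2 and 50.8 CPM after ABS and 71.6, 68.6 and 69.4 CPM unexposed. The groups stood apart, and the fall was 1.41-fold (-0.50 ± 0.10, edgeR adjusted p = 0.00411), which held in all 18 fits that left out 1 library. In shAPE1#3 cells AHRR had 95.1, 77.2 and 86.5 CPM after ABS and 90.7, 93.9 and 82.4 CPM unexposed, and in shControl cells 71.1, 85.4 and 74.2 CPM after ABS and 82.3, 77.2 and 78.5 CPM unexposed. Those groups overlapped, with changes of -0.09 ± 0.10 in both (edgeR adjusted p = 0.824 and 0.713). So 1 of 6 members passed in each FLO1 construct, where 5.01%, 1.81% and 3% of all genes tested were called in shAPE1#1, shAPE1#3 and shControl cells. TIPARP in shAPE1#1 cells, at 24.1 to 28.2 CPM after ABS and 31.4 to 33 CPM unexposed, missed the threshold (-0.29 ± 0.12, edgeR adjusted p = 0.176; 0.0285 with those groups alone and 0.0446 without shControl ABS replicate 2).

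Some marker sums moved in the same FLO1 groups, while the mesenchymal sums overlapped with each construct. In shControl cells the fibroblast genes summed to 26.8 to 37.1 CPM after ABS and 23.5 to 25 CPM unexposed, the immune genes to 7.31 to 8.85 CPM after ABS and 5.93 to 6.74 CPM unexposed, and the endothelial genes to 1.03 to 1.43 CPM after ABS and 0.257 to 0.837 CPM unexposed. The epithelial sums overlapped in those cells. In shAPE1#3 cells the immune genes summed to 8.21 to 10.9 CPM after ABS and 6.2 to 6.89 CPM unexposed. The epithelial genes there summed to 2770 to 2820 CPM after ABS and 2550 to 2580 CPM unexposed. Endothelial genes summed to 1.11 to 1.73 CPM after ABS and 0.566 to 0.785 CPM unexposed, and the fibroblast sums overlapped. In shAPE1#1 cells, where AHRR fell, the epithelial genes summed to 4250 to 4660 CPM after ABS and 3710 to 3920 CPM unexposed. The epithelial sum in FLO1 is mostly KRT8 and KRT18. Fibroblast genes in shAPE1#1 cells summed to 24.1 to 27.1 CPM after ABS and 20.9 to 23.7 CPM unexposed. Immune genes summed to 6.26 to 7.6 CPM after ABS and 6.17 to 6.19 CPM unexposed, and the endothelial sums overlapped. The part of these markers in the lower CYP1B1 and AHRR was not tested.

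CYP1A1 in FLO1 had 2.95, 3.08 and 2.4 CPM after ABS and 2.84, 2.37 and 3.2 CPM unexposed in shControl cells, from 56 to 85 counts. The libraries overlapped, and the change was -0.04 ± 0.195 with a 95% interval of -0.45 to 0.36, which lies below the OE33 interval. In shAPE1#1 cells the ABS libraries, at 2.24 to 3.19 CPM, lay below the unexposed ones, at 3.3 to 4.04 CPM, without passing (-0.49 ± 0.18, edgeR adjusted p = 0.143). AHR in FLO1 shControl cells had 5.97, 3.86 and 4.47 CPM after ABS and 3.06, 3.88 and 3.24 CPM unexposed, a change of 0.44 ± 0.15 that did not pass (edgeR adjusted p = 0.122; 0.0407 without ABS replicate 2).

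**Figure D3:**
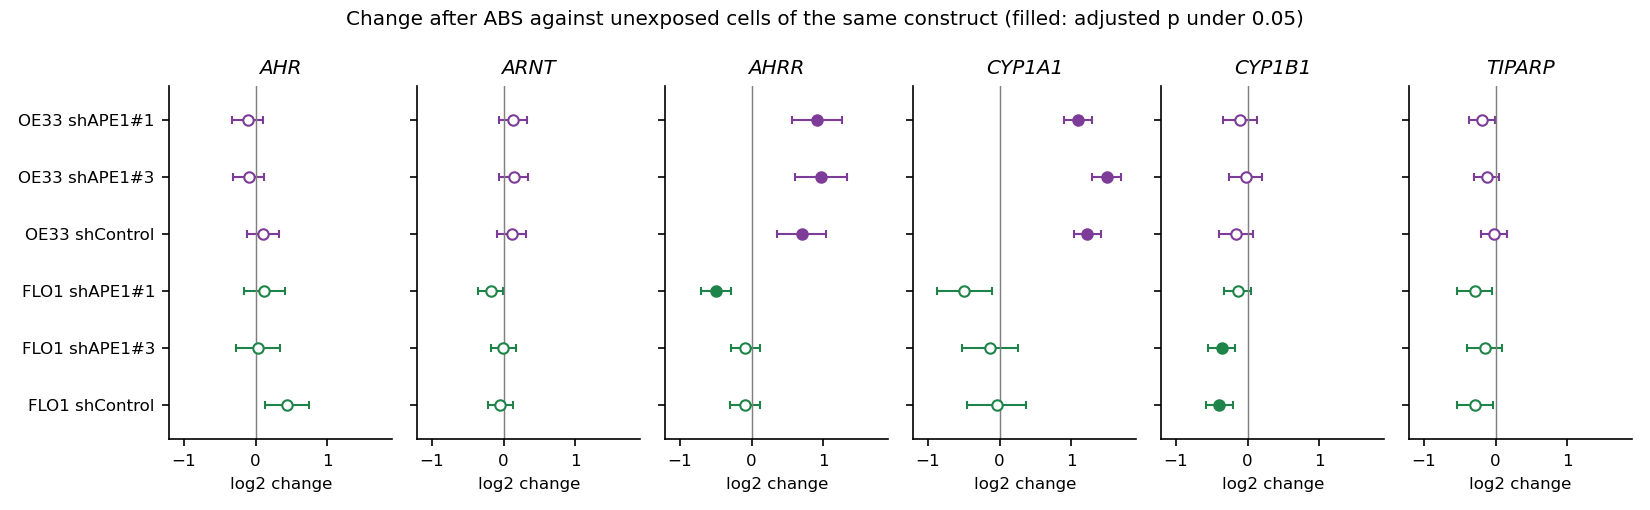
Log2 change of each gene after ABS against unexposed cells of the same construct (x axes), by line and construct; points are edgeR estimates, bars 95% intervals, and filled points had an adjusted p under 0.05. CYP1A1 and AHRR lie above 0 in all 3 OE33 rows, at 1.09 to 1.49 and 0.69 to 0.97.

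The difference between the lines was tested itself, over all 36 libraries. In shControl cells the ABS response of CYP1A1 was 1.25 ± 0.21 larger in OE33 than in FLO1 (edgeR adjusted p = 0.000209), and that of AHRR 0.78 ± 0.18 larger (edgeR adjusted p = 0.0157). The AHRR difference was lost without OE33 shControl unexposed replicate 1 (edgeR adjusted p = 0.0574), unexposed replicate 3 (0.0838) or ABS replicate 2 (0.068), and with only those 4 groups fitted (0.11). Averaged over both shAPE1 constructs the response was larger in OE33 by 1.60 ± 0.14 for CYP1A1 (edgeR adjusted p = 2.29e-10) and by 1.23 ± 0.13 for AHRR (edgeR adjusted p = 3.05e-08), and no library left out ended these. The FLO1 side averages AHRR responses of -0.50 with shAPE1#1 and -0.09 with shAPE1#3. In both tests 2 of 6 members passed, against 1.73% of all genes in shControl and 6.85% in the shAPE1 constructs.

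CYP1A1 and AHRR can be followed together in each library. In OE33 their log2 levels had a Pearson r of 0.89 over the 18 libraries, which hold the ABS and unexposed groups and so share that split. In FLO1 the same r was 0.015 over 18 libraries. AHRR was at 46.4 CPM or more in each FLO1 library and at 7.24 CPM or less in each OE33 library.

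**Figure D4:**
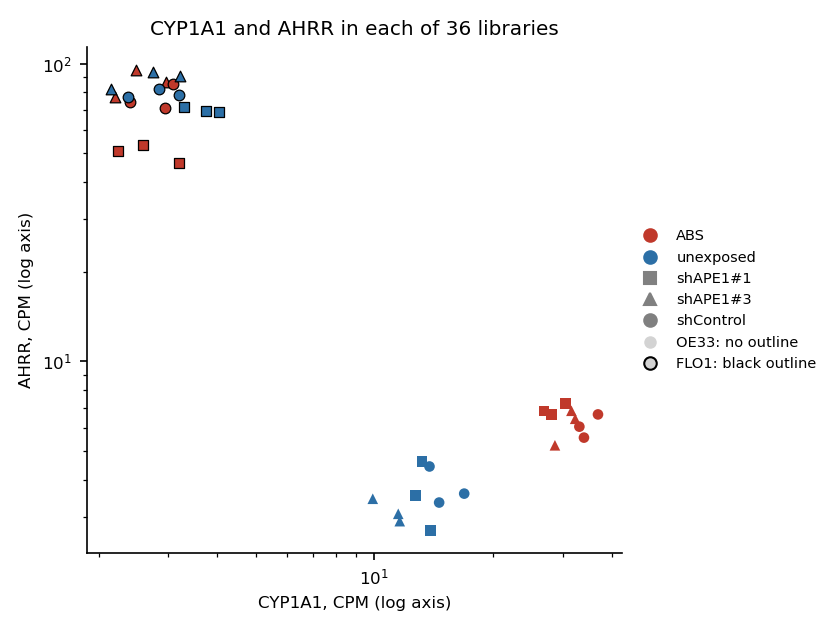
AHRR against CYP1A1, in CPM on log axes, in each of the 36 libraries; red is ABS and blue unexposed, shapes give the construct, and black outlines mark FLO1. The OE33 libraries after ABS sit at 26.9 to 36.9 CPM of CYP1A1, right of and above the unexposed ones at 9.91 to 16.9, and the FLO1 libraries stand apart at 2.15 to 4.04.

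The third comparison asked what knockdown of APE1 does to the pathway. In unexposed OE33 cells AHR, CYP1B1 and TIPARP were higher with both shRNAs, by 0.25 to 0.53 on the log2 scale, and CYP1A1 was lower, past the test with shAPE1#3 only. Both shRNAs were set against the same shControl libraries, so their effects are not independent. In unexposed FLO1 cells no member passed with either shRNA.

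AHR in unexposed OE33 had 32.9, 26.6 and 34.7 CPM with shAPE1#1 and 36.9, 32 and 35.5 CPM with shAPE1#3, against 20.8, 23.9 and 28.4 CPM with shControl. The shAPE1#3 libraries stood above all control libraries (0.53 ± 0.11, edgeR adjusted p = 0.000651), and the shAPE1#1 libraries overlapped them (0.37 ± 0.11, edgeR adjusted p = 0.0168). The shAPE1#1 call was lost in 4 of 18 fits that left out 1 library (shControl replicate 1 or 2, shAPE1#1 replicate 1 or 3, all unexposed), with edgeR adjusted p of 0.0562 to 0.112. ARNT, at 25.4 to 28.5 CPM in both shAPE1 groups and 21.7 to 29.3 CPM in shControl, moved by 0.05 and 0.07 and did not pass.

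CYP1B1 in unexposed OE33 had 17.4, 14.7 and 16.4 CPM with shAPE1#1 and 16, 17.9 and 17.5 CPM with shAPE1#3, against 12.1, 13.1 and 12.6 CPM with shControl. Both sets stood above the control libraries, by 0.36 ± 0.12 (edgeR adjusted p = 0.0328) and 0.46 ± 0.12 (edgeR adjusted p = 0.00554). TIPARP had 97.2, 80.9 and 93.6 CPM with shAPE1#1 and 99.6, 90.7 and 94.1 CPM with shAPE1#3, against 69, 69.5 and 89.6 CPM with shControl (0.25 ± 0.09, edgeR adjusted p = 0.0442, and 0.34 ± 0.09, edgeR adjusted p = 0.00586). With shAPE1#3 none of these calls, nor that of AHR, was lost when any 1 library was left out. With shAPE1#1 CYP1B1 was lost in 5 of 18 such fits (any of the 3 shControl libraries, shAPE1#1 replicate 1 or 3, all unexposed; edgeR adjusted p = 0.0539 to 0.127) and TIPARP in 11 of 18 (0.0504 to 0.211), held there only without shControl unexposed replicate 3, shControl ABS replicate 1, shAPE1#1 unexposed replicate 2, shAPE1#1 ABS replicate 2 or 3, or shAPE1#3 ABS replicate 1 or 3. TIPARP with shAPE1#1 was also lost with library totals alone (edgeR adjusted p = 0.0683), with the replicate block (0.056) and with those groups alone (0.107).

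CYP1A1 went the other way from CYP1B1. It had 12.7, 13.2 and 13.9 CPM with shAPE1#1 and 11.6, 9.91 and 11.5 CPM with shAPE1#3 in unexposed OE33 cells, against 16.9, 13.8 and 14.6 CPM with shControl. The shAPE1#3 libraries lay below all control libraries (-0.44 ± 0.10, edgeR adjusted p = 0.00246), while the change with shAPE1#1 was -0.19 ± 0.10 and did not pass (edgeR adjusted p = 0.203). AHRR, at 2.71 to 4.62 CPM with shAPE1#1 and 2.91 to 3.46 CPM with shAPE1#3, against 3.36 to 4.44 CPM with shControl, did not pass with either.

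In all, 3 of 6 members passed with shAPE1#1 and 4 of 6 with shAPE1#3 in unexposed OE33, where 16.4% and 21.7% of all genes tested were called. AHR, CYP1B1 and TIPARP were called with both shRNAs and 1 sign, as were 12.9% of all genes. After ABS 2 of 6 passed with each shRNA, against 15.8% of all genes with shAPE1#1 and 18.1% with shAPE1#3. CYP1B1 was higher with both, at 14.1, 17 and 14.8 CPM with shAPE1#1 and 13.6, 16.6 and 20.1 CPM with shAPE1#3, against 9.98, 11.9 and 11.6 CPM with shControl (0.41 ± 0.12, edgeR adjusted p = 0.0151, and 0.59 ± 0.11, edgeR adjusted p = 0.000602). The other call after ABS was a lower CYP1A1 with shAPE1#1 (-0.32 ± 0.09, edgeR adjusted p = 0.014) and a higher AHR with shAPE1#3 (0.34 ± 0.10, edgeR adjusted p = 0.0259). With the other shRNA each moved the same way without passing. CYP1A1 with shAPE1#3 was at 28.7 to 32.3 CPM against 33.1 to 36.9 CPM with shControl (-0.16 ± 0.09, edgeR adjusted p = 0.22). AHR with shAPE1#1 was at 27.7 to 31 CPM against 23.2 to 27.1 CPM (0.15 ± 0.11, edgeR adjusted p = 0.376).

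Calls with shAPE1#1 after ABS were lost for CYP1A1 without shControl ABS replicate 2 (edgeR adjusted p = 0.0907) or without shAPE1#1 ABS replicate 1 (0.0654) or 2 (0.0505), and for CYP1B1 without shControl ABS replicate 1 (0.0844) or shAPE1#1 ABS replicate 2 (0.0544). The AHR call with shAPE1#3 was lost without shControl ABS replicate 1 (edgeR adjusted p = 0.141) or shAPE1#3 ABS replicate 1 (0.0813) or 3 (0.127). TIPARP after ABS had 81.3, 85.2 and 93.9 CPM with shAPE1#3 and 69.1, 76.9 and 74.6 CPM with shControl, all above the controls and just short of the threshold (0.24 ± 0.09, edgeR adjusted p = 0.0537). DESeq2 called it (adjusted p = 0.0398). By edgeR it was called without the filter on low counts (adjusted p = 0.0413) and with only those groups fitted (0.0219). It also passed edgeR without shControl unexposed replicate 3 (0.0277), shAPE1#1 unexposed replicate 2 (0.0368), or shAPE1#1 ABS replicate 2 (0.0465) or 3 (0.0434).

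Some markers of cell state moved with the OE33 knockdown. The 7 epithelial genes summed to 18300 to 20200 CPM with shAPE1#1 and 18600 to 19400 CPM with shAPE1#3 unexposed, against 22300 to 24200 CPM with shControl. Most of that sum is KRT19 and KRT8, with medians of 9370 and 6290 CPM in OE33. EPCAM did not fall with it and overlapped the controls. It was at 555 to 650 CPM with shAPE1#1 and 548 to 591 CPM with shAPE1#3, against 572 to 595 CPM with shControl. The 7 mesenchymal genes, most of whose sum is FN1, came to 413 to 570 CPM with shAPE1#1 and 543 to 628 CPM with shAPE1#3, against 218 to 247 CPM with shControl, while TWIST1 and CDH2 were each at 0 in 13 of the 18 OE33 libraries. VIM was at 3.26 to 7.18 CPM with shAPE1#1, 2.95 to 3.46 CPM with shAPE1#3 and 0.309 to 0.743 CPM with shControl. The part of these shifts in the changes of AHR, CYP1B1, TIPARP and CYP1A1 was not tested.

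In unexposed FLO1 cells 0 of 6 members passed edgeR's test with shAPE1#1 and 0 of 6 with shAPE1#3, while 6.74% and 0.788% of all genes were called. At an unadjusted p under 0.05 the counts were 2 and 1, and DESeq2 called 0 with each. AHR was at 4.33, 4.66 and 4.44 CPM with shAPE1#1 and 2.95, 3.57 and 3.1 CPM with shAPE1#3, against 3.06, 3.88 and 3.24 CPM with shControl, and the first set stood above the controls without passing (0.39 ± 0.15, edgeR adjusted p = 0.121). ARNT, CYP1A1 and TIPARP with shAPE1#1 likewise lay above all control libraries and AHRR below them, with changes of 0.12, 0.40, 0.20 and -0.19 that did not pass. The margin was narrow for TIPARP, at 31.4 against 31.3 CPM, and for CYP1A1, at 3.3 against 3.2 CPM. How many of all genes stood apart in this way was not counted, so the separation says little about these genes as a group. With shAPE1#3 ARNT also lay above the controls, at 50.8 to 54.6 CPM against 45.1 to 48 CPM (0.18 ± 0.08, edgeR adjusted p = 0.496), and AHRR lay above them, the other way from shAPE1#1, at 82.4 to 93.9 CPM against 77.2 to 82.3 CPM (0.15 ± 0.10, edgeR adjusted p = 0.744). Of all genes 0.0711% were called in FLO1 with both shRNAs and 1 sign, none of them a member.

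After ABS in FLO1, 2 of 6 members passed with shAPE1#1, against 16.6% of all genes, and 0 with shAPE1#3, against 0.783%. AHRR had 46.4, 53.2 and 50.8 CPM with shAPE1#1 and 71.1, 85.4 and 74.2 CPM with shControl, and the fall of -0.60 ± 0.10 (edgeR adjusted p = 0.000354) held whichever library was left out. CYP1B1 had 108, 132 and 139 CPM with shAPE1#1 and 106, 89.4 and 97.6 CPM with shControl, a rise of 0.40 ± 0.09 (edgeR adjusted p = 0.00488) that also held. With only those groups fitted neither passed (edgeR adjusted p = 0.0523 for AHRR and 0.157 for CYP1B1). Without shControl ABS replicate 2, which stood apart, the changes were -0.48 for AHRR (edgeR adjusted p = 0.000247) and 0.37 for CYP1B1 (edgeR adjusted p = 0.00456). The epithelial genes summed to 4250 to 4660 CPM with shAPE1#1 and 2520 to 3070 CPM with shControl after ABS. In FLO1 this sum is mostly KRT8 and KRT18, and its part in both changes was not tested. For shAPE1#3 after ABS, 2 members had an unadjusted p under 0.05 in edgeR and DESeq2 called 0; AHR was at 2.99, 3.49 and 3.62 CPM there and at 5.97, 3.86 and 4.47 CPM with shControl (-0.51 ± 0.15, edgeR adjusted p = 0.148; 0.0193 without shControl ABS replicate 2).

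**Figure D5:**
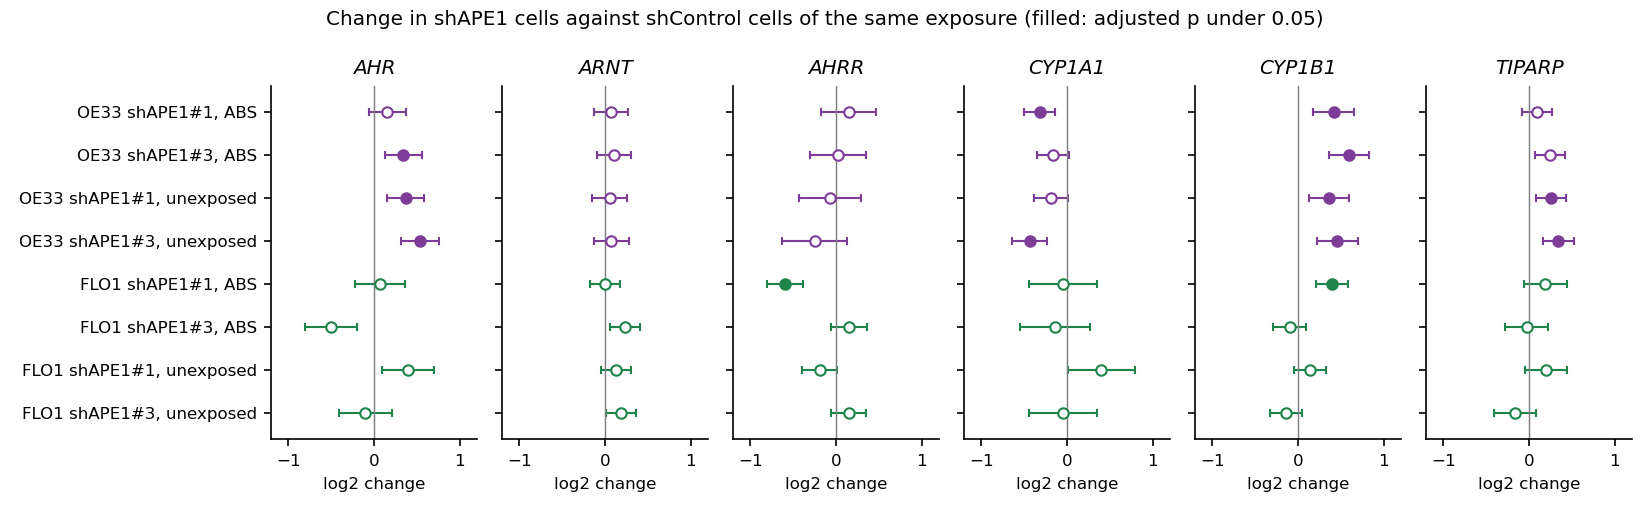
Log2 change of each gene in shAPE1 cells against shControl cells of the same exposure (x axes), by line, exposure and shRNA; points are edgeR estimates, bars 95% intervals, and filled points had an adjusted p under 0.05. CYP1B1 lies above 0 in all 4 OE33 rows, at 0.36 to 0.59, and AHRR is lowest in FLO1 with shAPE1#1 after ABS, at -0.60.

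The unexposed knockdown effect, averaged over both shRNAs, was compared between lines. For CYP1B1 the FLO1 average joins effects of opposite sign. They were 0.14 ± 0.09 with shAPE1#1 (edgeR adjusted p = 0.438) and -0.14 ± 0.09 with shAPE1#3 (edgeR adjusted p = 0.721). A FLO1 mean near none is therefore not the same as an absent effect of each shRNA. CYP1B1 alone passed, with an effect 0.39 ± 0.12 larger in OE33 than in FLO1 (edgeR adjusted p = 0.0478), against 6.37% of all genes. That call was lost in 17 of 36 fits that left out 1 library (edgeR adjusted p = 0.0511 to 0.131). Among the unexposed libraries these were replicates 1, 2 and 3 of FLO1 shAPE1#1, FLO1 shAPE1#3 and OE33 shControl, replicates 1 and 2 of FLO1 shControl, 1 and 3 of OE33 shAPE1#1, and 2 and 3 of OE33 shAPE1#3, and among the ABS libraries replicate 3 of FLO1 shAPE1#3 and 2 of OE33 shControl. It was also lost with the replicate block (edgeR adjusted p = 0.056) and with library totals alone (0.0709). CYP1A1 missed the threshold, at -0.52 ± 0.18 (edgeR adjusted p = 0.074), and passed without FLO1 shControl ABS replicate 2 (0.0499), without FLO1 shAPE1#3 unexposed replicate 3 (0.0411) and with DESeq2 (0.0458).

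Whether the ABS response itself changes with APE1 knockdown was tested as the response in shAPE1 cells minus that in shControl cells. APEX1 mRNA was lowered and not absent in shAPE1 cells. In unexposed FLO1 it was at 37.13 CPM with shAPE1#3 against 196.6 CPM with shControl. In OE33 CYP1A1 differed by -0.13 ± 0.13 with shAPE1#1 (95% interval -0.40 to 0.14) and by 0.27 ± 0.13 with shAPE1#3 (95% interval -0.0019 to 0.55), and AHRR by 0.22 ± 0.24 and 0.28 ± 0.24. In FLO1 CYP1A1 differed by -0.45 ± 0.27 with shAPE1#1 and -0.09 ± 0.27 with shAPE1#3, and AHRR by -0.41 ± 0.14 and 0.01 ± 0.14. No member passed in any of these 4 tests by edgeR (0 called) or by DESeq2 (0 called), and at an unadjusted p under 0.05 there was 1 in FLO1 with shAPE1#1 (AHRR) and 0 in each of the others. Over all genes edgeR called 0% in FLO1 with each shRNA and in OE33 with shAPE1#1, and 0.0129% in OE33 with shAPE1#3. At an unadjusted p under 0.05 there were 1615 and 341 genes in FLO1 and 557 in OE33 shAPE1#1, and DESeq2 called 30, 1 and 11. The intervals leave room for a difference of the OE33 CYP1A1 response of -0.40 with shAPE1#1 or 0.55 with shAPE1#3.

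The shRNAs were also set against each other. In FLO1, shAPE1#3 cells had less AHR and CYP1B1 and more AHRR than shAPE1#1 cells, in both exposures. AHRR had 95.1, 77.2 and 86.5 CPM with shAPE1#3 after ABS and 46.4, 53.2 and 50.8 CPM with shAPE1#1, with no overlap (0.75 ± 0.10, edgeR adjusted p = 1.53e-05). CYP1B1 had 99.1, 84.6 and 91.1 CPM with shAPE1#3 and 108, 132 and 139 CPM with shAPE1#1 (-0.50 ± 0.09, edgeR adjusted p = 0.000438). AHR had 2.99, 3.49 and 3.62 CPM with shAPE1#3 and 4.69, 5.12 and 5.01 CPM with shAPE1#1 (-0.58 ± 0.14, edgeR adjusted p = 0.00563). These 3 calls held in every fit that left out 1 library, whereas the call of ARNT (0.24 ± 0.08, edgeR adjusted p = 0.0456) was lost in 15 of 18, with edgeR adjusted p of 0.0531 to 0.181, all but those without shControl ABS replicate 1 or 2 or shAPE1#1 ABS replicate 3. The ARNT call was also lost without the filter on low counts (edgeR adjusted p = 0.241), with the replicate block (0.0752) and with those groups alone (0.0673).

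Unexposed, the same FLO1 comparison called AHRR (0.34 ± 0.10, edgeR adjusted p = 0.0275), AHR (-0.49 ± 0.15, edgeR adjusted p = 0.028), CYP1B1 (-0.28 ± 0.09, edgeR adjusted p = 0.0479) and TIPARP (-0.36 ± 0.12, edgeR adjusted p = 0.0498). These calls were not firm. Leaving out any unexposed shAPE1#1 library, or unexposed shAPE1#3 replicate 1, ended those of both AHR and AHRR, as did shAPE1#3 replicate 3 for AHR and replicate 2 for AHRR (edgeR adjusted p = 0.0609 to 0.136). CYP1B1 was lost in 12 of 18 such fits (edgeR adjusted p = 0.0506 to 0.163), kept without shControl unexposed replicate 2, shControl ABS replicate 1 or 2, shAPE1#1 ABS replicate 1 or 3, or shAPE1#3 ABS replicate 1. TIPARP was lost in 14 (0.0566 to 0.26), kept without shControl unexposed replicate 2, shControl ABS replicate 1 or 2, or shAPE1#1 ABS replicate 1. With library totals alone, no filter and the replicate block the edgeR adjusted p was 0.0766, 0.11 and 0.0781 for CYP1B1 and 0.0894, 0.0515 and 0.0681 for TIPARP, and AHR was lost without the filter (0.101). CYP1A1 was at 2.15 to 3.22 CPM with shAPE1#3 and 3.3 to 4.04 CPM with shAPE1#1. It missed the threshold (-0.44 ± 0.18, edgeR adjusted p = 0.131) and passed with only those groups fitted (0.0313). Thus 4 of 6 members passed in each exposure, where 12.2% of all genes were called unexposed and 22.3% after ABS. APEX1 was 0.55 ± 0.08 higher with shAPE1#3 than with shAPE1#1 in unexposed FLO1, and the epithelial sum was 2550 to 2580 CPM with shAPE1#3 and 3710 to 3920 CPM with shAPE1#1, with 2430 to 2760 CPM in shControl cells. After ABS that sum was 2770 to 2820 CPM with shAPE1#3 and 4250 to 4660 CPM with shAPE1#1. It is mostly KRT8 and KRT18 in FLO1, with medians of 1640 and 1140 CPM. EPCAM did not follow it unexposed, at 0.636 to 1.25 CPM with shAPE1#3 and 0.537 to 0.692 CPM with shAPE1#1. The part of APEX1 or of these markers in the changes of the members was not tested.

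In OE33 the shRNAs gave 0 called members in either exposure, by edgeR and by DESeq2, with 1 member (CYP1A1) at an unadjusted p under 0.05 unexposed and 0 after ABS. Over all genes edgeR called 0% unexposed, with 1248 genes at an unadjusted p under 0.05 and 34 called by DESeq2, and 0.116% after ABS.

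Other genes of the pathway were taken from 8 lists and read against the same backgrounds, 8.4% of genes called after ABS in OE33 and 3% in FLO1, and 12.9% and 0.0711% called in OE33 and FLO1 with both shRNAs and 1 sign. In the cytosolic AHR complex (6 genes, among them HSP90 chaperones, PTGES3, CDC37 and SRC) ABS in shControl cells raised 1 of 6 in OE33, the kinase SRC (0.24 ± 0.07, edgeR adjusted p = 0.0264), and edgeR called 0 of 6 in FLO1 (1 at an unadjusted p under 0.05, 0 by DESeq2). Knockdown, counted where both shRNAs passed with 1 sign, gave 0 of 6 in OE33 (1 at an unadjusted p under 0.05, 0 by DESeq2). The chaperone HSP90AB1 was at 2670 CPM with shAPE1#1, 2920 CPM with shAPE1#3 and 2820 CPM with shControl in unexposed OE33, and at 3300, 3600 and 3740 CPM in the same order in FLO1. The median log2 change of the list after ABS was 0.03 in OE33 and 0.00 in FLO1, against 0.00 and -0.01 over all genes.

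Of 15 coregulators of AHR, 2 rose after ABS in each line and none fell. RELB, an NF-kB subunit that can pair with AHR, rose by 0.60 ± 0.09 in OE33 (edgeR adjusted p = 0.00016) and by 0.51 ± 0.13 in FLO1 (edgeR adjusted p = 0.0314). The acetyltransferase EP300 was the other in OE33 (0.45 ± 0.12), and the zinc finger factor KLF6, another partner of AHR, the other in FLO1 (0.39 ± 0.09). In OE33 3 of 15 were higher with both shRNAs: KLF6 (0.88 and 0.94), RELB (0.45 and 0.51) and the chromatin remodeler SMARCA4 (0.20 and 0.35). The median of the list was 0.19 in OE33 and 0.06 in FLO1 after ABS, against 0.00 and -0.01 over all genes.

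Of 4 genes of AHR turnover 0 passed after ABS in either line (0 at an unadjusted p under 0.05 and 0 by DESeq2 in both), and the ubiquitin ligase component DDB1 was higher with knockdown in OE33 (0.21 and 0.28). Among the other PAS genes, 9 of 13 were tested in OE33 and 11 in FLO1. After ABS the clock factors NPAS2 in OE33 (0.31 ± 0.07) and ARNTL in FLO1 (0.59 ± 0.10) rose and the rest did not pass. HIF1A, the hypoxia factor that shares ARNT with AHR, was higher in OE33 with shAPE1#1 and shAPE1#3 (0.29 and 0.43), the sole PAS gene called there.

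Further AHR targets in drug metabolism were lower with knockdown in OE33 for 4 of 7 tested by edgeR and 3 of 7 by DESeq2, and edgeR called none higher. ALDH3A1, an aldehyde dehydrogenase, stood at 13.6 ± 0.902 CPM with shAPE1#3 and 111 ± 6.31 CPM with shControl (SD, n = 3 each; -3.12 ± 0.10 with shAPE1#1 and -3.01 ± 0.10 with shAPE1#3). NQO1, a quinone reductase, was at 229 ± 4.82 CPM with shAPE1#3 and 305 ± 5.67 CPM with shControl (-0.31 and -0.40 with the shRNAs), NFE2L2, the oxidative stress factor NRF2, fell by 0.25 and 0.27, and UGT1A6, a glucuronosyltransferase that shares exons with its family, was at 0.727 CPM with shAPE1#3 and 1.41 CPM with shControl. The edgeR adjusted p of these changes was at most 0.0497, and the median of the list was -0.26, against 0.00 over all genes. After ABS 1 of 7 was higher in OE33, the transporter ABCG2 (0.44 ± 0.08), and 1 lower, NFE2L2 (-0.31 ± 0.07). In FLO1 0 of 5 tested passed after ABS (0 at an unadjusted p under 0.05, 0 by DESeq2); NQO1 was at 120 CPM after ABS and 128 CPM unexposed.

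Of the AHR targets in signalling and growth, 14 of 18 were tested in OE33 and 13 in FLO1. In OE33 6 were higher and 2 lower with both shRNAs, among them SERPINB2, a protease inhibitor (137 ± 7.1 CPM with shAPE1#3 and 57.4 ± 1.24 CPM with shControl; 1.35 and 1.28), the scaffold NEDD9 (1.32 and 1.16), the cell cycle inhibitor CDKN1A (-0.79 and -0.86) and the trefoil factor TFF1 (-0.88 and -0.65). After ABS 4 rose and 2 fell in OE33, among them NEDD9 at 1.17 ± 0.16, CCNG2 at 0.42 ± 0.10 and IL1B at -1.61 ± 0.35, and in FLO1 2 rose, among them CDKN1A by 0.71 ± 0.09, and CDKN1B fell (-0.62 ± 0.12). The list's medians after ABS were 0.13 in OE33 and 0.17 in FLO1. All these changes had an edgeR adjusted p under 0.05.

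Enzymes of tryptophan and kynurenine metabolism were tested for 10 of 11 genes in OE33 and 5 in FLO1. In OE33 KYNU rose (0.35 ± 0.10, edgeR adjusted p = 0.0288) and KYAT3 fell (-0.40 ± 0.11, edgeR adjusted p = 0.0214) after ABS, and IL4I1, an amino acid oxidase, was higher with knockdown (0.86 and 1.14) at a low level, 1.58 CPM with shAPE1#3 and 0.716 CPM with shControl. In FLO1 0 passed after ABS (1 at an unadjusted p under 0.05, 0 by DESeq2), with KYAT3 at 15.6 CPM in both exposures. Of the other P450 genes of the first 3 families, 7 of 17 were tested in each line, and 0 passed after ABS (1 in OE33 and 0 in FLO1 at an unadjusted p under 0.05, 0 by DESeq2 in both). The sole call was CYP3A5, lower with knockdown in OE33 (-0.58 and -0.63). With both shRNAs in FLO1, edgeR and DESeq2 called 0 genes in each of the 8 lists, and 1 P450 gene alone had an unadjusted p under 0.05 with both and 1 sign.

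The genes whose log2 CPM ran most like each member over the 18 libraries of a line were found by Pearson r among 11658 genes in OE33 and 12008 in FLO1. These are descriptions over libraries that share their group structure. In OE33 CYP1A1 ran with PDLIM2 (r = 0.963) and TRIM16 (0.958), and AHRR with SAFB2 (0.941), PLEKHG6 (0.93) and FA2H (0.929). AHR ran with TENT4B (0.937), ABLIM1 (0.927) and QKI (0.926), TIPARP with USP53 (0.918), NR1D2 (0.911) and ADAM10 (0.909), and CYP1B1 with EOGT (0.935), LINC02086 (0.907) and TFDP1 (0.904). In FLO1 AHRR ran with ADCY3 (0.974), RAB15 (0.968) and KIF1A (0.965), CYP1B1 with SUN1 (0.938), NETO2 (0.93) and IQGAP1 (0.924), and TIPARP with OCLN (0.939), XPR1 (0.936) and MBTPS2 (0.934). The weakest top values were those of CYP1A1 in FLO1, 0.816 with MAMSTR, and of ARNT, 0.862 with UBE4B in FLO1 and 0.876 with RNF169 in OE33.

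Among the members, AHR and TIPARP ran together in OE33 (r = 0.898, 18 libraries), and CYP1B1 followed both (r = 0.753 with AHR and 0.78 with TIPARP). In FLO1 CYP1B1 and TIPARP ran together (r = 0.829), and AHR ran against AHRR (r = -0.783). CYP1A1 and CYP1B1 had an r of -0.35 in OE33 and 0.337 in FLO1.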

How the data were processed

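Gene counts of 36 polyA RNA libraries, 3 per group and described in the series' design text as independent biological replicates, were used as deposited by the authors in 1 table of raw counts. Per the submitters' processing notes, Trimmomatic 0.36, STAR 2.5.2b and featureCounts (Subread 1.5.2) were run with GRCh38. Which annotation release and strand setting were used, and how reads shared by genes were handled, the sources used here do not give. GENCODE 29 held 56898 of the 57500 IDs and gave symbols, coordinates and exon lengths; the other 602 IDs held 0.0183% of counts.

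Each line's 18 libraries were fitted together with edgeR 4.0.16 in R 4.3.3 (TMM factors, filterByExpr, robust quasi-likelihood test), and all 36 together for differences between lines. Benjamini-Hochberg adjustment ran over all genes tested (16868 in FLO1, 15540 in OE33, 18199 jointly) at a threshold of 0.05. Levels are CPM without factors.

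The 6 genes, the lists and the tests were chosen with earlier results of these data known. APEX1 and the 6 members were always named. Per list, line and comparison, up to 4 called genes with the largest log2 change were named, or, with no call, up to 2 of the highest level, not all of which are printed. The likeness search named the 3 genes with the highest r among those that averaged 1 or more in log2 CPM (prior count 2). Alternatives were DESeq2 1.42.0, RLE factors, library totals alone, no filter, only the groups compared, a replicate block, and leaving out each library. Library totals of 20.7 to 40.7 M leave fewest counts for AHR and CYP1A1 in FLO1 and AHRR in OE33, which limits their precision. A few genes that the lists or the likeness rule hold are counted but not reported here by name.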

Additional observations from a re-analysis of the deposited data

Results flagged for a closer look

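The response to ABS differed between the lines for CYP1A1 and AHRR, by a test of the difference over all 36 libraries. For CYP1A1 the OE33 response exceeded the FLO1 response by 1.25 on the log2 scale in shControl cells (edgeR adjusted p = 0.000209) and by 1.6 averaged over both shAPE1 constructs (edgeR adjusted p = 2.29e-10). All 9 OE33 ABS libraries stood above all 9 unexposed OE33 libraries. For AHRR the difference was 0.78 in shControl cells (edgeR adjusted p = 0.0157) and 1.23 over both shAPE1 constructs (edgeR adjusted p = 3.05e-08). The shControl call of AHRR was lost in 3 of 36 fits that left out 1 library (edgeR adjusted p = 0.0574 to 0.0838). It was also lost with only the groups compared in the fit (edgeR adjusted p = 0.11). The FLO1 side of the 1.23 averages unlike AHRR changes, a fall of -0.50 with shAPE1#1 and -0.09 with shAPE1#3, which did not pass.

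The unexposed knockdown effect on CYP1B1 was 0.39 larger in OE33 than in FLO1 (edgeR adjusted p = 0.0478), a call that many single libraries decide. Its FLO1 side averages changes of opposite sign, 0.14 with shAPE1#1 and -0.14 with shAPE1#3. Line and culture medium cannot be told apart in any of these.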

How the results depend on the processing

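Over 26 comparisons and 6 genes, 156 values in all, 41 were called. Of those 22 were called under every alternative and with every library left out, 29 under all 6 settings that kept every library, and no called value changed sign. The CYP1A1 rise after ABS in OE33 was called throughout. With only the groups compared in the fit, members called were 0 for FLO1 shControl ABS, 2 for FLO1 shAPE1#1 ABS, 0 for FLO1 shAPE1#1 against shControl after ABS, 1 for OE33 shAPE1#1 ABS and 1 for the line difference of the ABS response in shControl. For FLO1 shAPE1#3 ABS the count was 0 without factors, without the filter and with the replicate block. For FLO1 shAPE1#3 against shAPE1#1, unexposed, it was 2 without factors, 1 without the filter and 2 with the replicate block, and CYP1A1 passed with only those groups fitted. Some settings also lost the calls of TIPARP for OE33 shAPE1#1 against shControl unexposed and of ARNT for FLO1 shAPE1#3 against shAPE1#1 after ABS. For the line difference of the knockdown effect the count was 2 by DESeq2, 0 without factors and 0 with the replicate block. For OE33 shAPE1#3 against shControl after ABS DESeq2 called 3 and edgeR 2, and TIPARP also passed without the filter and with only those groups fitted. For the coregulators after ABS in OE33 DESeq2 called 5 and edgeR 2. The causes of these shifts were not tested.

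With 1 library left out the count ranged from 0 to 2 for FLO1 shControl ABS, 1 to 2 for FLO1 shAPE1#1 ABS, 0 to 1 for FLO1 shAPE1#3 ABS, 0 to 1 for FLO1 shAPE1#3 against shControl after ABS, 0 to 4 for FLO1 shAPE1#3 against shAPE1#1 unexposed, 1 to 2 for OE33 shControl ABS, 0 to 3 for OE33 shAPE1#1 against shControl unexposed, 0 to 2 for the same after ABS, 1 to 3 for OE33 shAPE1#3 against shControl after ABS, 1 to 2 for the line difference of the ABS response in shControl and 0 to 2 for that of the knockdown effect.

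No shared deviation was seen under the same replicate number. Same-numbered libraries had correlations of their deviations of -0.198 to 0.087 in OE33 and -0.288 to 0.095 in FLO1, with 0 of 45 pairs over 0.1 in each. Differently numbered libraries had -0.167 to 0.293 in OE33, with 8 of 90 pairs over 0.1, and -0.176 to 0.25 in FLO1, with 10 of 90. These values cannot tell whether libraries of 1 number were handled together.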
